A study of Homo sapiens with 19 samples.

Results

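OCT-2 is an octamer-binding transcription factor encoded by POU2F2. Its binding sites were mapped by chromatin immunoprecipitation and sequencing (ChIP-seq) in human MDA-MB-231 breast cancer cells, once with forced and once with endogenous expression. The data described here are the 2 lists of OCT-2 peaks, 6658 of the 8616 regions that the 10 deposited lists of the series hold. They were taken whole: 5741 peaks of 231Pa_Luc+OCT-2 and 917 peaks of 231-D. Of the 5741 peaks, 5 (0.0871%) lay on unplaced contigs and were set aside, which left 5736.

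231Pa_Luc+OCT-2 was a polyclonal population of the parental line (231Pa) that stably carried luciferase and a POU2F2 transgene. 231-D was a clone of high metastatic ability from the same line that carried luciferase and no POU2F2 transgene, and its OCT-2 libraries were also labelled polyclonal with a stable transgene. Both cells therefore carried luciferase, and only the forced cells were given OCT-2 from outside. Which promoter drives the transgene is not stated in the labels. The series has no OCT-2 library of 231Pa or of cells carrying luciferase and GFP (231Pa_Luc+GFP). In 231Pa_Luc+OCT-2, any binding by the cells' own OCT-2 therefore cannot be told apart from that of the transgene. Each OCT-2 list was made by the authors from 2 replicates, and the same cells had 2 libraries each for H3K27ac, an acetyl mark of active enhancers. The series as a whole has 19 samples, 12 of them for H3K27ac, 4 for OCT-2 and 3 inputs. The lists hold positions alone, without heights or reads, so depth is unknown, and with 1 list per cell no difference could be set against the spread between replicates. Intervals in parentheses are exact 95% intervals (Clopper-Pearson for shares, order statistics for medians) and cover counting error only. As a check of the labelled cell type, superenhancers of 231Pa_Luc+OCT-2 lay within 10 kb of 5.74% of the 20037 protein-coding genes. They lay at 4 of 6 mesenchymal breast cancer markers (VIM, CD44, FOSL1 and AXL) and at 0 of 10 luminal epithelial, 0 of 8 B lymphocyte, 0 of 4 other leukocyte, 0 of 4 endothelial and 0 of 4 fibroblast markers; beside that share, counts of 0 in such short lists say little.

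OCT-2 and its relative OCT-1, encoded by POU2F1, share a bipartite DNA-binding region, the POU domain, and both recognise the octamer word ATGCAAAT, on the other strand ATTTGCAT. OCT-2 is best known from B lymphocytes, where octamers stand in immunoglobulin promoters, whereas octamers in histone H2B promoters and in the distal elements of small nuclear RNA genes are classic sites of OCT-1. The word alone does not tell sites of OCT-2 and OCT-1 apart, and whether the antibody also met OCT-1 was not tested. Superenhancers are long stretches of dense H3K27ac that often lie near genes specific to a cell type.

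Sequence could be read only at promoters, and so only at a small part of the loci that the lists have in common. The peaks of 231-D are in hg19 and those of 231Pa_Luc+OCT-2 in hg38, and no coordinate was converted. A locus was instead recognised in the other list by the distances to its neighbours, which are nearly the same in every build, and is here termed recurring. The following stretches are promoter sequence of GRCh38.p14 (RefSeq) under 10 recurring peaks of 231Pa_Luc+OCT-2. They are printed 5′ to 3′ on the strand of the named gene with the octamer in capitals. All were taken from promoters that hold the octamer, so they do not show how common it is. Of the 570 recurring peaks, 65 lay on a promoter window, and 23 of these 65 held the octamer. Among such promoters these were chosen because histone genes, neighbours of small nuclear RNA genes and genes of transcription factors are among them.
H2BC3, chr6:26043786-26043873, minus strand: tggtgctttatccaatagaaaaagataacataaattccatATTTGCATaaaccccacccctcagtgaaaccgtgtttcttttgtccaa
H2BC12, chr6:27146857-27146944, minus strand: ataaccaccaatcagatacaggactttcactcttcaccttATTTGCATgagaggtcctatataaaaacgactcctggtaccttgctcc
H2BC17, chr6:27893236-27893323, plus strand: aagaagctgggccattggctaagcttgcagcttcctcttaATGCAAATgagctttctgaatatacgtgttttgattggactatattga
H3-3B, chr17:75779808-75779895, minus strand: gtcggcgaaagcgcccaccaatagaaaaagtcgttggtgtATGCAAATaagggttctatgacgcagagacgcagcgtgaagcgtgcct
SIRT4, chr12:120292085-120292172, plus strand: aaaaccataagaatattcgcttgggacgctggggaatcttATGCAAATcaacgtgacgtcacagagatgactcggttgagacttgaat
MED16, chr19:893220-893307, minus strand: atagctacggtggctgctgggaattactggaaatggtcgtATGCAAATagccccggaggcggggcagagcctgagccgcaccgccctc
NFIA, chr1:61077145-61077226, plus strand: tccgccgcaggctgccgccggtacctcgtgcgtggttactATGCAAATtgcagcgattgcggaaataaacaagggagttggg
ELF3, chr1:202010419-202010506, plus strand: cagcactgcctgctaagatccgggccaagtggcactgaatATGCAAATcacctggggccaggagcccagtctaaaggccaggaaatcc
SRF, chr6:43171115-43171202, plus strand: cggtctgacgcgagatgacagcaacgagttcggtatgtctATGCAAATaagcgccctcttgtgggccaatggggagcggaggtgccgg
CHD9, chr16:53130838-53130925, plus strand: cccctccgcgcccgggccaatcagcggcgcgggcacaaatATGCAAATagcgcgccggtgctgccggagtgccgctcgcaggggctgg

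H2BC3, H2BC12 and H2BC17 encode copies of the core histone H2B, and H3-3B encodes the replacement histone H3.3. NFIA, ELF3 and SRF are transcription factor genes, and CHD9 encodes a chromatin remodeller. SIRT4, a mitochondrial sirtuin, and MED16, a subunit of the Mediator complex, are neighbours of the small nuclear RNA genes RNU4-2 and RNU6-9. In the stretch of SRF the middle of the octamer lay 1 bp from the centre of the peak, in ELF3 and SIRT4 4 bp, in H2BC17 5 bp, in H2BC3 and CHD9 6 bp and in H3-3B 8 bp. It lay 16 bp from the centre at NFIA, 39 bp at MED16 and 74 bp at H2BC12.

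The octamer was frequent in promoters at OCT-2 peaks, and most frequent at those that recurred. Promoter windows ran from 250 bases before to 50 bases after a gene's start, 300 bases in all, and both strands were searched. The word stood in 27 of 77 windows at a recurring peak (35.1%, 24.5 to 46.8%), in 51 of 419 windows at any other peak of 231Pa_Luc+OCT-2 (12.2%, 9.20 to 15.7%) and in 623 of all 35116 windows (1.77%). The intervals of recurring and other peaks did not overlap, and each lay above the share of all windows. The search finds recurring loci more often where 231-D peaks are dense, so other peaks may include loci that the lists share. The counts are not adjusted for this. Some windows share a peak. With each peak counted once, 23 of 65 recurring promoter peaks (35.4%) and 43 of 326 others (13.2%) held the octamer. Read from the other side, 34.8% of the 66 promoter peaks with an octamer recurred (23.5 to 47.6%), against 12.9% of the 325 promoter peaks without one (9.47 to 17.1%).

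For other short words the intervals of recurring and other peaks overlapped. These words were added for comparison after the octamer result was seen. The letters of the octamer read backwards (TAAACGTA or TACGTTTA) stood in 0 of 77 windows at recurring peaks, which allows up to 4.68%, in 0 of 419 at other peaks and in 0.142% of all windows. The AP-1 word TGACTCA or TGAGTCA, the binding word of FOS and JUN proteins, stood in 5.19% of windows at recurring peaks (1.43 to 12.8%), in 8.83% at other peaks (6.29 to 12.0%) and in 4.95% of all. The CCAAT box (CCAAT or ATTGG) stood in 50.6% (39.0 to 62.2%), 47.3% (42.4 to 52.2%) and 34.6% of the same 3 sets of windows. The GC box (GGGCGG or CCGCCC) stood in 67.5% (55.9 to 77.8%), 58.5% (53.6 to 63.2%) and 45.0%. For both boxes the intervals of recurring and of other peaks lay above the share of all windows. The interval of the AP-1 word at other peaks did so too. None of these words is contained in the octamer, although their ends can overlap it. The median GC content was 59.3% for windows at recurring peaks, 60.3% at other peaks and 58.7% over all windows.

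Where a promoter peak held an octamer, the word lay close to the middle of the peak in both classes. The median distance from octamer to peak centre was 25 bp at recurring peaks and 16 bp at the others, and 18 of 23 octamers at recurring peaks (78.3%, 56.3 to 92.5%) and 34 of 43 at the others (79.1%, 64.0 to 90.0%) lay within 50 bp. The intervals of these last shares overlapped, unlike those for how many promoters held the word.

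**Figure D1:**
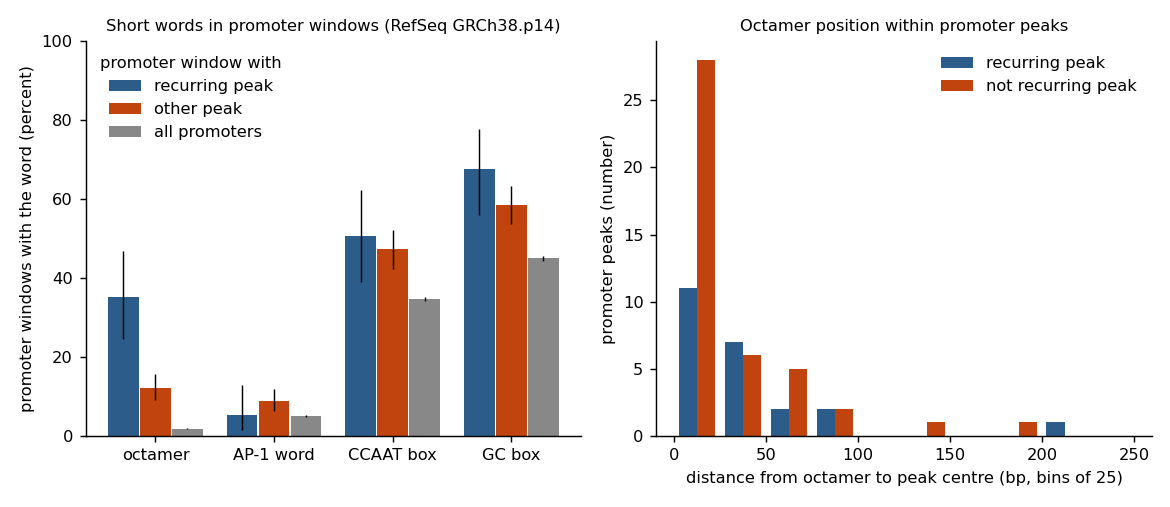
Left, the percentage of promoter windows that hold each word, for windows at a recurring peak (77), at another peak of 231Pa_Luc+OCT-2 (419) and for all windows (35116), with exact 95% intervals. Right, the number of promoter peaks by distance from octamer to peak centre in bins of 25 bp: most octamers of both classes lie within 50 bp of the centre.

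Peaks lay just beside most genes of small nuclear RNAs, and most of these peaks recurred. The list of 29 genes holds mainly RNAs of the major and minor spliceosome, together with U7, 7SK and the RNA parts of RNase P and RNase MRP. It also holds RNU105B and RNU105C, which are annotated as small nucleolar RNA. Of the 29 genes, 23 had a 231Pa_Luc+OCT-2 peak within 10 kb, where 15.5% of the 20037 protein-coding genes had one, and 17 had a recurring peak, where 2.25% of protein-coding genes had one. At 20 of the 29 genes (69.0%, 49.2 to 84.7%) the centre of the nearest peak lay within 1 kb of the gene, always between 83 and 232 bp outside its ends, with a median of 179 bp. These are 20 separate peaks, and 14 of them recurred (70.0%, 45.7 to 88.1%), 11 with at least 3 matched neighbours, against 9.94% of all 5736 peaks (9.17 to 10.7%). The gene table gives no strand, so the side of the gene on which a peak lay is not stated.

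The recurring ones included all 5 genes of U5 RNA in the list. Peaks lay 216 bp from RNU5F-1 and 177 bp from RNU5D-1 on chromosome 1 (10 matched neighbours each), 145 bp from RNU5A-1 and 175 bp from RNU5B-1 on chromosome 15 (6 each), and 205 bp from RNU5E-1 (2). They also included U6 genes, RNU6-1 at 190 bp, RNU6-2 at 232 bp and RNU6-9 at 181 bp (6 each), and the minor spliceosomal RNU12 at 169 bp (5). RNU4-2, which encodes U4, had its peak at 221 bp (4), RNU2-2, which encodes U2, at 187 bp (3), and RMRP, the RNA of RNase MRP, at 134 bp (3). RNU11 at 189 bp and RNU4ATAC at 185 bp had 2 matched neighbours each.
RN7SK, the RNA that restrains elongation factor P-TEFb, had a peak at 123 bp, RPPH1, the RNA of RNase P, at 89 bp, RNU6ATAC at 142 bp, RNU4-1 at 83 bp, RNU6-8 at 159 bp and RNU2-63P at 196 bp, and these peaks were in the 231Pa_Luc+OCT-2 list without a match in 231-D. Several of these genes have near-identical copies, so reads at them may have been placed on any copy.

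Histone H2B genes had recurring peaks at some members. Of 18 genes, 10 had a 231Pa_Luc+OCT-2 peak within 10 kb, where 15.5% of protein-coding genes had one. H2BC3, H2BC12 and H2BC17 had a recurring one, with 6, 6 and 7 matched neighbours, where 2.25% of protein-coding genes had one. H2BC3 had 2 recurring peaks within 10 kb, 1 of them on the promoter of the neighbouring H2A gene H2AC4, and both lay in a superenhancer of 231Pa_Luc+OCT-2. The octamer of H2BC17 is shared with the promoter of H2AC17, which starts on the opposite strand.

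Among all loci, 570 recurred between the lists. A 231-D peak was counted as recurring where a peak of 231Pa_Luc+OCT-2 on the same chromosome had at least 2 neighbours within 10 Mb at the same signed centre-to-centre distances, within 200 bp, as the 231-D peak had to its own neighbours. This held for 570 of 917 231-D peaks (62.2%, 58.9 to 65.3%), each with a partner of its own, so that 9.94% of the 5736 peaks of 231Pa_Luc+OCT-2 recurred, where a partner for every 231-D peak would give 15.99%. As a background, the same search with the order of the distances reversed matched 59 of the 231-D peaks (6.43%, 4.93 to 8.22%). All 59 had exactly 2 matched neighbours, while 108 of the 570 had exactly 2. With at least 3 matched neighbours, 462 of 917 (50.4%, 47.1 to 53.7%) were matched in the same order and 0 in reversed order, which allows up to 0.401%. Single loci with exactly 2 matched neighbours are therefore uncertain. The octamer stood in 27 of 61 windows at peaks with at least 3 matched neighbours (44.3%, 31.5 to 57.6%) and in 0 of 16 at peaks with exactly 2, which allows up to 20.6%.

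The matched distances were close. Over 3245 matched distances the median difference between the lists was 32 bp, and 89.7% differed by 100 bp or less, against a median of 66 bp over the 118 distances matched in reversed order. How often a 231-D peak was matched rose with the number of 231-D neighbours it could be matched by, as the method requires. Peaks with 0 or 1 neighbour within 10 Mb (38) could not be matched. The matched share was 30.7% of 114 peaks with 2 to 3 neighbours, 63.4% of 303 with 4 to 6, 68.7% of 227 with 7 to 10 and 79.6% of 235 with 11 to 22 (73.8 to 84.5%), with reversed shares of 1.75%, 1.98%, 7.93% and 14.04%. The count of 570 is thus no upper limit of what the lists share. By chromosome the share of 231-D peaks that recurred was 83.8% of 37 on chromosome 19, 75.6% of 86 on chromosome 5, 38.6% of 44 on chromosome 2, 17.6% of 17 on the X chromosome and 0 of 5 on chromosome 21.

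The narrowest peaks of the forced cells recurred most often. Width throughout is that of merged peak intervals, so it depends on how far apart these lay and is not read as breadth of binding. By 4 equal bins of width, 17.8% of the narrowest 231Pa_Luc+OCT-2 peaks (238 to 247 bp; 15.8 to 19.9%), 10.1% and 7.53% of the next and 4.32% of the widest (305 to 509 bp; 3.33 to 5.51%) recurred. With at least 3 matched neighbours these shares were 14.3%, 8.996%, 5.65% and 3.28%. The order ran over all 4 bins, and the intervals of the outer ones did not overlap. In 231-D the corresponding shares were 66.5%, 61.6%, 64.2% and 56.3%, and the intervals of the narrowest (60.02 to 72.6%) and the widest (49.6 to 62.9%) overlapped.

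**Figure D2:**
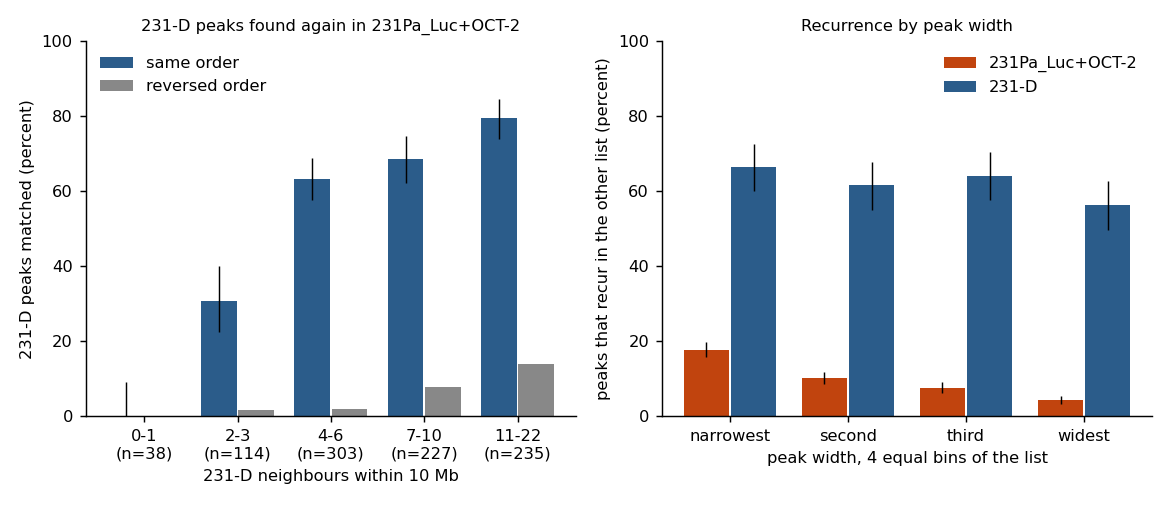
Left, the percentage of 231-D peaks matched in 231Pa_Luc+OCT-2 by the number of 231-D neighbours within 10 Mb, in the same and in reversed order of distances. Right, the percentage of peaks of each list that recur in the other, by 4 equal bins of peak width: the share falls over the bins of 231Pa_Luc+OCT-2, where it is 17.8% in the narrowest and 4.32% in the widest. Lines are exact 95% intervals.

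Merged peak intervals were slightly wider in 231Pa_Luc+OCT-2 than in 231-D, which does not measure breadth of binding. Every 231-D peak and all but 3 of the 231Pa_Luc+OCT-2 peaks are merges of 2 peak intervals, and in each list the least width was also the most frequent one, 238 bp in 231Pa_Luc+OCT-2 and 222 bp in 231-D. The median width was 267 bp (265 to 268) in 231Pa_Luc+OCT-2 and 242 bp (240 to 245) in 231-D, a difference of 25 bp, of which 16 bp is the difference between the least widths. Above the least width of its list the median peak had 29 bp (27 to 30) in 231Pa_Luc+OCT-2 and 20 bp (18 to 23) in 231-D. Peaks at exactly the least width made up 9.31% of 231Pa_Luc+OCT-2 and 15.5% of 231-D. Recurring peaks of 231Pa_Luc+OCT-2 had a median of 251 bp (248 to 253), the other peaks of that list 269 bp (268 to 270). Within 231-D the medians were 241 bp for recurring and 244 bp for other peaks, with overlapping intervals. Peaks inside superenhancers were wider than those outside in the forced cells, 275 bp (271 to 280) against 265 bp (264 to 267), while in 231-D the medians were 247 bp (239 to 257) and 241 bp (239 to 245).

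The list of forced OCT-2 held 6.26 times as many peaks as that of endogenous OCT-2, covering 1631 kb in 231Pa_Luc+OCT-2 and 234 kb in 231-D. They lay closer together: the median distance from a peak to the nearest other peak of its list was 77.2 kb (74.0 to 82.0) in 231Pa_Luc+OCT-2 and 713 kb (590.2 to 808) in 231-D. Within 10 kb of another peak lay 14.8% of the peaks of 231Pa_Luc+OCT-2 (13.9 to 15.7%) and 4.36% of those of 231-D (3.13 to 5.89%). Set against the mean gap between neighbouring peaks of the list, which is shorter where there are more peaks, the median nearest distance was 0.152 of it in 231Pa_Luc+OCT-2 and 0.229 of it in 231-D. Within 10% of the mean gap lay 40.5% of the peaks of 231Pa_Luc+OCT-2 (39.2 to 41.8%) and 31.3% of those of 231-D (28.3 to 34.4%). By these 2 measures the peaks of 231Pa_Luc+OCT-2 lay closer together on this scale too. Within the smallest part of the mean gap tried lay 7.72% of the peaks of 231Pa_Luc+OCT-2 (7.05 to 8.44%) and 8.18% of those of 231-D (6.49 to 10.1%), with overlapping intervals. When 231Pa_Luc+OCT-2 was reduced to as many peaks as 231-D, the median distance was 654 kb for its 917 widest and 725 kb for its 917 narrowest peaks, both within the interval of 231-D. Set against the mean gap of each subset, these medians were 0.217 and 0.238 of it, on either side of the 0.229 of 231-D. The share of peaks in clusters, runs of peaks linked over the default stitching distance of superenhancer calling, was 5.02% and 4.03% in these subsets and 5.23% in 231-D, against 17.5% over all 231Pa_Luc+OCT-2 peaks. The lists give neither the thresholds nor the depth behind their numbers of peaks. They also differ in build and in the number that opens the name the authors gave each. The cells differ too: 231-D was a clone of high metastatic ability, and the forced cells were a population of the parental line. Forced expression therefore cannot be told apart from differences between the cells, runs or processing.

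**Figure D3:**
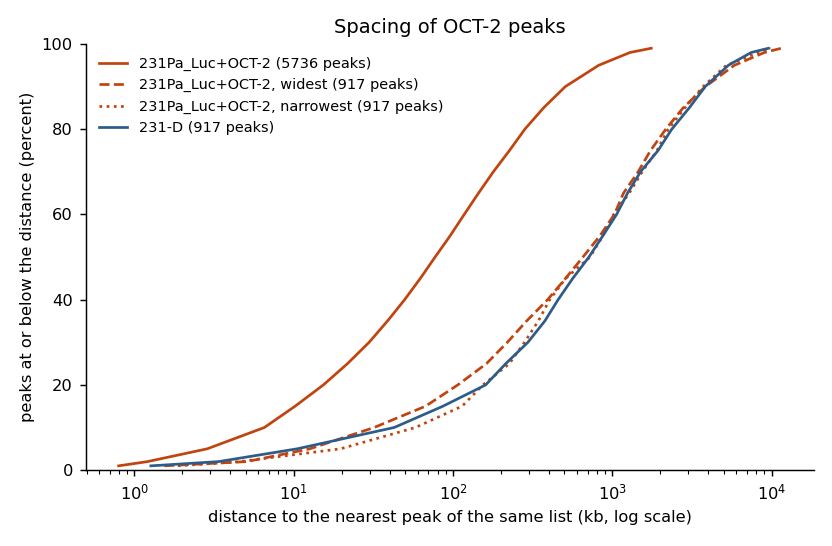
Percentage of OCT-2 peaks whose nearest other peak of the same list lies within a given distance (kb, log scale), for all peaks of 231Pa_Luc+OCT-2, its 917 widest and 917 narrowest peaks, and all peaks of 231-D. The curves of equal number lie close to that of 231-D, and the curve of all 5736 peaks lies at shorter distances, with a median of 77.2 kb against 713 kb.

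Clusters of peaks lay in superenhancers more often than single peaks in the forced cells. There were 467 clusters with 1005 peaks in 231Pa_Luc+OCT-2, of which 60 had 3 or more peaks, and 24 clusters with 48 peaks in 231-D, all pairs. In 231Pa_Luc+OCT-2 33.2% of the clusters and 11.7% of the single peaks lay in a superenhancer, and in 231-D 16.7% of the 24 clusters and 13.9% of the single peaks did. A cluster counted as inside where any part of its span met a superenhancer, so it could meet one more easily than a single peak. The 24 clusters of 231-D, 4 of them inside, are too few to compare the lists in this. The largest cluster of 231Pa_Luc+OCT-2 had 6 peaks over 47.4 kb in ADAMTS12, which encodes a secreted metalloprotease (hg38 chromosome 5, 33808471 to 33855822), and 1 of them recurred. The next had 5 peaks over 28.1 kb around H2BC3 (chromosome 6, 26027119 to 26055203), of which 2 recurred. Clusters of 4 lay at PHLDA1, CLMN, ENC1 and LOC127903862, 65.7 kb from ARF6, a small GTPase of endosomal traffic, and 425 kb from MYC. Of these 8 clusters of 4 or more peaks, those at CLMN, ENC1 and LOC127903862 lay outside superenhancers. There were 52 clusters of 3 on 17 chromosomes, and the first 2 of them by chromosome name and position lay 106 kb from SLC45A1 and in LOC124900417, both in superenhancers.

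The share of peaks inside superenhancers of the same cells was alike in both lists, though forced OCT-2 reached far more of these regions. Inside them lay 904 of 5736 peaks of 231Pa_Luc+OCT-2 (15.8%, 14.8 to 16.7%) and 129 of 917 peaks of 231-D (14.1%, 11.9 to 16.5%), with overlapping intervals. The superenhancers took up 1.67% of the genome span in 231Pa_Luc+OCT-2 and 1.52% in 231-D. Peak density inside was 11.01 times that outside in 231Pa_Luc+OCT-2 and 10.6 times in 231-D. At least 2 peaks were found in 245 of 518 superenhancers of 231Pa_Luc+OCT-2 (47.3%, 42.9 to 51.7%) and in 18 of 408 of 231-D (4.41%, 2.64 to 6.88%). With equal numbers of peaks, 29.9% (26.01 to 34.1%; 917 widest) and 19.3% (15.99 to 22.97%; 917 narrowest) of the superenhancers of 231Pa_Luc+OCT-2 held a peak, on either side of the 26.2% (22.0 to 30.8%) of those of 231-D. The widest peaks lay in superenhancers more often, 21.3% (18.7 to 24.1%), than the narrowest, 13.2% (11.1 to 15.6%).

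Wider superenhancers held a peak more often in the forced cells. By 4 equal bins of width the share was 64.6%, 73.6%, 79.8% and 95.4% in 231Pa_Luc+OCT-2, and 21.6%, 17.6%, 28.4% and 37.3% in 231-D. Peaks per Mb went the other way in 231Pa_Luc+OCT-2, with 24.6 in the narrowest and 15.7 in the widest bin, and were 5.73 and 2.29 in those of 231-D. Within a superenhancer, 48.9% of the peaks of 231Pa_Luc+OCT-2 (45.6 to 52.3%) and 55.8% of those of 231-D (46.8 to 64.5%) had their centre in the central 50% of its length; the share that even spread would give falls inside both intervals. Peaks outside were far away: the median distance to a superenhancer was 1.72 Mb in 231Pa_Luc+OCT-2 and 2.06 Mb in 231-D, and 2.48% of those of 231Pa_Luc+OCT-2 and 2.28% of those of 231-D lay within 50 kb of one.

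**Figure D4:**
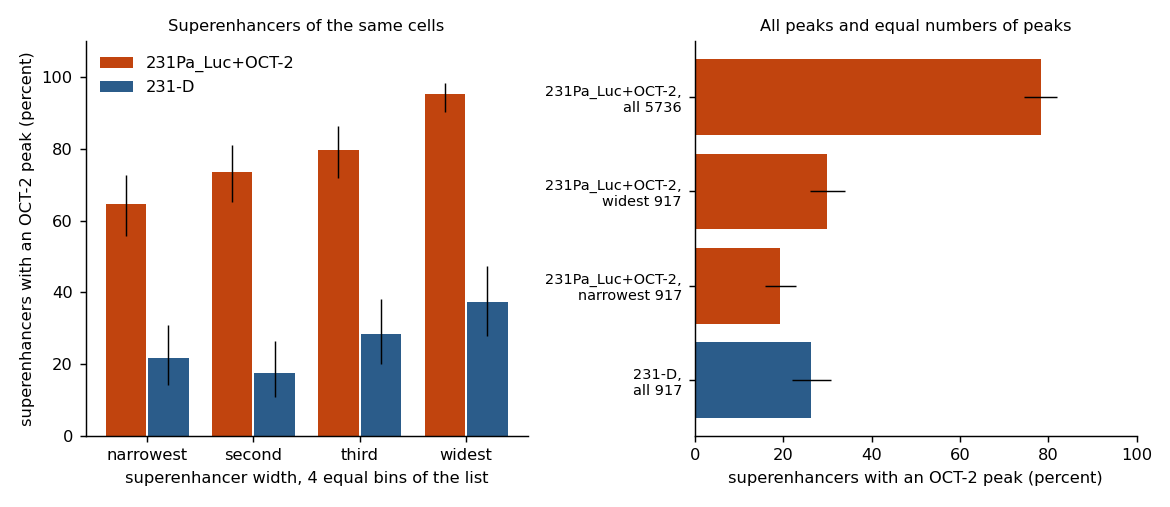
Left, the percentage of superenhancers of the same cells that hold an OCT-2 peak, by 4 equal bins of superenhancer width, in 231Pa_Luc+OCT-2 and 231-D. Right, the same percentage over all superenhancers for all peaks and for the 917 widest and narrowest peaks of 231Pa_Luc+OCT-2, beside 231-D: the value of 78.4% with all peaks is 29.9% and 19.3% with 917. Lines are exact 95% intervals.

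The 10 superenhancers of 231Pa_Luc+OCT-2 that head the list by number of peaks held 6 to 11 each. One of 471 kb over SLC45A1, a sugar transporter, held 11 peaks (chromosome 1, 7953741 to 8424840), and none of these recurred. One of 215 kb at BCAS1 on chromosome 20 held 8, of which 2 recurred, and one at IFIT1B on chromosome 10 held 7, of which 1 recurred. A pair of superenhancers beside PHLDA1, a gene of the pleckstrin-homology family, held 7 each with 0 recurring, and that of ADAMTS12 held 7 with 2 recurring. Those nearest TOMM20, CUBN, NRP1 (the receptor neuropilin 1) and CORO1C, the first 4 by chromosome name and position of 7 tied at this number, held 6 each, and 1 of the 6 at CUBN recurred.

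Recurring peaks lay in superenhancers about as often as other peaks, and most recurring loci in a superenhancer of one cell were in one of the other cell too. In 231Pa_Luc+OCT-2 16.1% of recurring (13.2 to 19.4%) and 15.7% of other peaks (14.7 to 16.7%) lay in one. In 231-D 15.8% of recurring (12.9 to 19.0%) and 11.2% of other peaks (8.12 to 15.0%) did, with overlapping intervals. Of the 570 recurring loci, 63 lay in a superenhancer in both cells, 29 in 231Pa_Luc+OCT-2 alone, 27 in 231-D alone and 451 in neither. Of the 90 in a superenhancer of 231-D, 70.0% (59.4 to 79.2%) also lay in one of 231Pa_Luc+OCT-2, against 6.04% of the 480 loci outside 231-D superenhancers. The 63 loci lay in 54 superenhancers of 231Pa_Luc+OCT-2. In the paired cells, 42 of the 63 also lay in a superenhancer of 231Pa_Luc+GFP, and 43 lay in a superenhancer that 231-D has in common with 231Pa; 37 met both conditions.

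The 7 recurring loci with 15 or 14 matched neighbours lay on chromosome 1, where 231-D had 114 peaks. A pair lay 34.2 kb and 31.1 kb from JUN, which encodes a subunit of AP-1 (hg38 chromosome 1, 58818236 to 58818483 and 58815114 to 58815355), with 15 and 14 matched neighbours, in a superenhancer of both cells. A pair 145 and 167 kb from FGGY, a carbohydrate kinase gene, had 15 each and also lay in a superenhancer of both cells. The remaining ones lay outside superenhancers of 231Pa_Luc+OCT-2: at the promoter of NFIA (15), in LOC107984956 (14) and 5.53 kb from SLC1A7, a glutamate transporter gene (14). A further 21 loci on 2 chromosomes were tied at 13 matched neighbours, and the first 3 of them by chromosome name and position, a pair in the kinase gene JAK1 and one in ZNF644, also lay outside superenhancers of 231Pa_Luc+OCT-2. Further loci in superenhancers of both cells, chosen after their values were seen, lay in ADAMTS12 (13 each for 2 peaks), 104 kb from the coagulation initiator F3 (13), 2.27 kb from the stress gene GADD45A (12), 3.53 kb from the AP-1 gene FOSB (10), in TNIP1, an inhibitor of NF-kappaB signalling (9), in ZC3H12A, an RNase that degrades cytokine mRNAs (9), in the epithelial transcription factor gene EHF (8), 128 bp from SOCS3, a feedback inhibitor of cytokine signalling (4), and in the cytokine gene CSF3 (3).

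Forced peaks reached most genes of the YAP, TAZ and TEAD list, which holds these factors of Hippo signalling together with target and regulator genes. The shares of protein-coding genes given beside it were not matched for gene length. Of 14 genes, 11 had a 231Pa_Luc+OCT-2 peak within 10 kb (15.5% of protein-coding genes had one) and 4 had a recurring one (2.25%). TEAD4 had one with 4 matched neighbours, and CRIM1, WWTR1 and TEAD1 had 2 matched neighbours each, which makes them uncertain. Of 8 POU factors and coactivators, 5 had a peak, and POU3F1 (9 matched neighbours) and POU2F1 (2, uncertain) a recurring one; POU2F2 itself had none within 10 kb. Of 11 AP-1 genes, FOSL2 and FOSB had a peak, and that of FOSB recurred. Of 18 TGF-beta genes 8 had a peak and 0 a recurring one, and of 18 NF-kappaB genes 4 and 0. Over all protein-coding genes with a peak of 231Pa_Luc+OCT-2, 14.4% had a recurring one, so that counts of 0 among 8 and among 4 say little. Among the cell type markers, recurring peaks lay at 1 of 10 luminal ones, ELF3, whose promoter stretch is printed above (3 matched neighbours). They also lay at 1 of 4 other leukocyte markers, PTPRC (4 matched neighbours). None lay at the mesenchymal (0 of 6), B lymphocyte (0 of 8), endothelial (0 of 4) or fibroblast (0 of 4) markers. Beside the share of 2.25% such counts say little.

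Recurring peaks lay at promoters more often than the rest. On a promoter window lay 65 of 570 recurring peaks (11.4%, 8.91 to 14.3%) and 326 of 5166 other peaks of 231Pa_Luc+OCT-2 (6.31%, 5.66 to 7.01%). Within 1 kb of either end of a protein-coding gene lay 14.4% of recurring (11.6 to 17.5%) and 8.11% of other peaks (7.38 to 8.89%). Elsewhere in gene bodies lay 43.0% of recurring and 45.7% of other peaks, and outside genes 42.6% of recurring and 46.2% of other peaks, with overlapping intervals. Most peaks of either class thus lay away from promoters, and of these no sequence was read. As for the octamer, these shares are not adjusted for the density of 231-D peaks, on which the search for recurring loci depends.

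The distribution over chromosomes was similar in both lists, with 3 exceptions. Over 23 chromosomes the shares of the lists had a Spearman rho of 0.916 and a Pearson r of 0.854, given as a description, since longer chromosomes hold more peaks in both. Chromosome 1 held 9.43% of 231Pa_Luc+OCT-2 (8.69 to 10.2%) and 12.4% of 231-D (10.4 to 14.7%). Chromosome 2 held 7.50% of 231Pa_Luc+OCT-2 (6.83 to 8.21%) and 4.80% of 231-D (3.51 to 6.39%). Chromosome 6 held 580 peaks (10.1%) of 231Pa_Luc+OCT-2 and 57 (6.22%) of 231-D. On the other 20 chromosomes the intervals overlapped. The excess of chromosome 6 lay mainly in its first 60 Mb, which held 7.15% of all 231Pa_Luc+OCT-2 peaks and 3.38% of all 231-D peaks, while the rest of the chromosome held 2.96% of 231Pa_Luc+OCT-2 and 2.84% of 231-D. Of the peaks on chromosome 6, 70.7% (66.8 to 74.4%) lay in these 60 Mb in 231Pa_Luc+OCT-2 and 54.4% (40.7 to 67.6%) in 231-D, with overlapping intervals. The split at 60 Mb was made for this chromosome alone. Neither list had a peak on the Y chromosome.

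**Figure D5:**
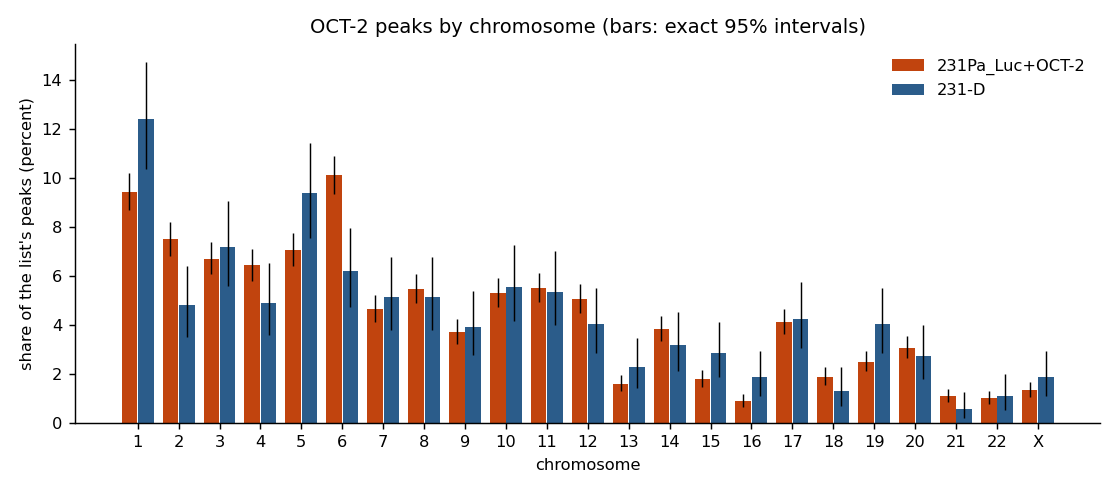
Percentage of each list's OCT-2 peaks on every chromosome in 231Pa_Luc+OCT-2 and 231-D, with exact 95% intervals. The intervals of the lists are apart on chromosomes 1, 2 and 6.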

How the data were processed

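Chromatin of MDA-MB-231 derivatives was precipitated with 5 µg of antibody, and libraries were amplified by 15 cycles of PCR, per the labels' protocols. The deposited lists hold the start, end and name of each interval, and were made by the authors from replicates 1 and 2. Tools in the submitters' processing notes are HOMER, bedtools, Bowtie and Bowtie2 (2.2.2.6), named with hg19 and hg38 but with no role for any of them. Thresholds and the use of input, and whether the replicates were separate cultures, are not given in the sources used here. 231-D and 231Pa lists are in hg19 and those of 231Pa_Luc+OCT-2 and 231Pa_Luc+GFP in hg38, by the names the authors gave them. The 3 MDA-MB-436 lists were not used.

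Superenhancers of 231-D are its specific regions plus those in common with 231Pa; a peak was inside with 1 bp of overlap. Recurring loci were found by matching distances, and the search was tested on simulated data. Genes are from a RefSeq table of GRCh38.p14 (20037 protein-coding genes on chromosomes), so gene names and sequences belong to hg38 peaks; 231-D peaks have none of their own. The nearest gene is protein-coding. Named are the nearest genes of the 10 recurring loci with the most matched neighbours, of the 10 largest clusters and of the 10 superenhancers with the most peaks in 231Pa_Luc+OCT-2, and members of gene lists with a recurring peak within 10 kb; ties at the tenth place were cut by chromosome name and position. The search with the small nuclear RNA genes within 1 kb was added after the counts within 10 kb were seen. Members, lists and comparisons were chosen with earlier results of these data known. No p-value is given. Other distances, windows, overlaps and equal numbers of peaks were tried. Python 3.11.15, numpy 2.4.6, pandas 2.3.3, scipy 1.17.1 and matplotlib 3.10.9 were used. Coordinates are 1-based.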

Additional observations from a re-analysis of the deposited data

How the results depend on the processing

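Of 38 alternatives, 29 left the value within its interval, for counts within 1.5 times, and 9 moved it. The median nearest distance of 231Pa_Luc+OCT-2 peaks was 106.5 kb outside superenhancers, 654 kb for the 917 widest and 725 kb for the 917 narrowest peaks, and that of 231-D 1030.4 kb outside superenhancers, against 713 kb for all. The share of 231Pa_Luc+OCT-2 peaks in superenhancers was 13.9% with the widest superenhancers in equal number to 231-D and 13.6% with the peaks of a cluster joined into 1, where 231-D had 14.1% and 13.998%. The share of 231Pa_Luc+OCT-2 superenhancers with a peak was 82.4% in that equal number, 29.9% with the 917 widest and 19.3% with the 917 narrowest peaks, against 26.2% in 231-D. The order of the point values thus turned round for the nearest distance and for superenhancers with a peak with the 917 narrowest peaks, and for the share of peaks in superenhancers in both settings given. The lists were not set apart by this. The values 725 kb, 13.9% and 13.6% lay within the main intervals of 231-D, and the interval of the 19.3% overlapped that of 231-D. Recurring 231-D peaks numbered 534 (reversed order 32) with a tolerance of 100 bp, 609 (210) with 500 bp, 457 (18) with a window of 5 Mb and 627 (145) with 20 Mb. Counts at 3 or more neighbours of octamers and promoters, each peak counted once, and values without chromosome 6 were chosen after seeing the data. No paired analysis was possible because the lists hold no value per replicate, and for the same reason no replicate could be left out. The number of peaks depends on thresholds and depth that the lists do not give.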

Other observations

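At recurring loci a superenhancer was in part of the cases present in 1 of the cells alone. Of the 29 loci in a superenhancer of 231Pa_Luc+OCT-2 and not of 231-D, 12 also lay in a superenhancer of 231Pa_Luc+GFP and 11 had their 231-D partner in a superenhancer of 231Pa. They included both peaks at H2AC4 and H2BC3 (6 matched neighbours each), one in WT1, a zinc-finger transcription factor gene (8), one in HIVEP3 (9), one 1.63 kb from CEACAM19 (10) and one 14.9 kb from the GTPase gene RAC2 (6). Of the 27 loci in a superenhancer of 231-D and not of 231Pa_Luc+OCT-2, 1 lay in a superenhancer of 231Pa_Luc+GFP and 7 in one of 231Pa. They included one in BCAR3, an adaptor of antioestrogen resistance (13), one 19.4 kb from the neurotrophic factor GDNF (13), one in ENC1 (10), and a pair 262 and 304 kb from TGFB2 (3 each). These genes were chosen after their values were seen, and the distances are from hg38 peaks of 231Pa_Luc+OCT-2.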
